A study of Mus musculus with 8 samples.

Results

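The 4 arrays described here follow the transcripts of RAW264.7 cells through 5 h of bacterial lipopolysaccharide (LPS) after a melatonin pretreatment. They were chosen by their titles, which name melatonin alone and melatonin with LPS for 1 h, 3 h and 5 h, and they are 4 of the 8 arrays of the series. RAW264.7 is a mouse macrophage line. All 4 cultures received 1 mM melatonin for 1 h. The first then received no LPS, and the others received Escherichia coli LPS at 100 ng/ml for 1, 3 or 5 h. The other 4 arrays hold the same LPS times without melatonin and serve here as the comparison arm. Each condition is 1 array of 1 cell line, and the labels do not say whether the cultures were grown separately, so a difference between arrays has no replicate check. No melatonin culture without LPS was kept for as long as those with LPS, so LPS cannot be told apart from the hours in culture or in melatonin. All 4 melatonin arrays lay in 1 row of 1 slide, each in its own column, so slide column and LPS time cannot be told apart either. As the melatonin arm held 1 row only, slide row and melatonin cannot be told apart in differences between the arms.

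LPS is the outer membrane glycolipid of Gram-negative bacteria. Macrophages bind it through CD14 and the TLR4 and MD-2 complex. One adaptor branch, through MyD88, activates NF-kB and the MAP kinases and turns on immediate early transcription factors, cytokines and chemokines. A second branch, through TRIF, activates IRF3 and interferon beta, which then acts back on the cell through its receptor to turn on the interferon response genes. Melatonin is an indoleamine made from serotonin, known as the night signal of the pineal gland, and it is also made by other tissues and acts on immune cells.

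Promoter sequences are shown first for 4 genes that mark successive steps of the course, to set the letters of known response elements beside the values below. The 4 were chosen after their values were seen, and because a listed element was found. Egr2 had the largest difference at 1 h between arrays both well above background, Cxcl2 the highest lower bound at every time, and Il6 and Rsad2 stand for the late cytokines and the interferon genes. Each line holds the 250 bases before the annotated start, 5′ to 3′ on the strand of the gene, from RefSeq on GRCm38.p6, with the element in capitals. For Egr2, at chr10:67537316-67537565 on the plus strand, the window is of 1 of 5 annotated starts and the capitals mark a CArG box, the site of serum response factor. For Cxcl2, at chr5:90903649-90903898 on the plus strand, and for Il6, at chr5:30012864-30013113 on the plus strand, they mark kB sites, the letters GGG, any 2 bases, then TTTCC. For Rsad2, at chr12:26456453-26456702 on the minus strand, they mark an interferon-stimulated response element, the letters GAAA, any 2 bases, then GAAA. Both strands were searched.
Egr2: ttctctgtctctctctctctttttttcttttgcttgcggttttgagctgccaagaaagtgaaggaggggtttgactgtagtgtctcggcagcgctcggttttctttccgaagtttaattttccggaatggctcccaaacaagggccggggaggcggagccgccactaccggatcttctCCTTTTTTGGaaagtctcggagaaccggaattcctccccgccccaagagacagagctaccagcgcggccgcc
Cxcl2: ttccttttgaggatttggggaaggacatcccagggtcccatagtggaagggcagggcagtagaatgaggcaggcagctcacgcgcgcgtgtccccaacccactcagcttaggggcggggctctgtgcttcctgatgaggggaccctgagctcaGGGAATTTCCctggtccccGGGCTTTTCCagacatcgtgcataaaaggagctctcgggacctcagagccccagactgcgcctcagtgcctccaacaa
Il6: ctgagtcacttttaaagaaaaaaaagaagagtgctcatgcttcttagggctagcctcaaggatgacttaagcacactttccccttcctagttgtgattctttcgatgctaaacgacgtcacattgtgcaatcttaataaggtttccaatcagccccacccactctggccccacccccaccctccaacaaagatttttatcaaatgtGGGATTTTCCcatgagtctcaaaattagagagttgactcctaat
Rsad2: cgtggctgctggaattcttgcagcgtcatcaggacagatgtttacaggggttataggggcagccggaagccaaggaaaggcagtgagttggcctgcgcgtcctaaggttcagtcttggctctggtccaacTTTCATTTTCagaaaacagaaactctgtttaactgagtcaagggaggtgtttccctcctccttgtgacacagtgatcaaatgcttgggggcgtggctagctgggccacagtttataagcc
The kB site of Il6 lies at positions -44 to -35 from the start, and Cxcl2 holds a pair, at -97 to -88 and -78 to -69. The element of Rsad2 lies at -120 to -111 and the CArG box of Egr2 at -72 to -63. Of 27025 genes, searched over the 250 bases before any of their annotated starts, 1.65% held the kB letters, 3.46% the interferon element and 1.62% a CArG box. Of the listed genes with a promoter entry, 5 of 14 NF-kB subunits and inhibitors, 3 of 14 cytokines and 2 of 8 chemokines held the kB letters, as did 2 of 15 genes of LPS sensing and 2 of 12 p53 targets, and none of 16 immediate early factors or 12 SOCS and receptor-level inhibitors. A CArG box was held by 2 of the 16 immediate early factors. Of 28 interferon response genes with an entry, 14 held the interferon element. A match is a description of these letters only.

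Levels are given as log2 of the processed signal minus the 75th percentile of the array, and differences are an LPS array minus the melatonin array without LPS. That percentile lay at signals of 846.1, 823.4, 793.9 and 718.7 on the arrays at 0, 1, 3 and 5 h, and between 49.1% and 51.8% of spots were well above background. A feature, meaning 1 probe per gene, was counted as higher or lower where it differed at least 2-fold and the brighter array was well above background. The 279 probes printed in 10 spots and well above background on all 4 arrays put the technical SD of a difference at 0.08 log2. It covers the spots of an array but not the spread between cultures. For dim probes the median SD between spots of 1 array was 0.23 to 0.36 log2, so their differences are less precise. The treatment field of the labels goes against the titles: it places 3 of the 4 samples at the next LPS time and leaves the 5 h sample blank. The titles were kept, and over 1887 genes each melatonin array correlated most with the array without melatonin of the same titled time (r = 0.888, 0.725, 0.719 and 0.826 at 0, 1, 3 and 5 h), as a description across genes. The 3 h and 5 h arrays were less clearly separated. The melatonin 3 h array had r = 0.634 with the 5 h array without melatonin. The melatonin 5 h array had r = 0.719 with the 3 h array without melatonin, as high as that of the melatonin 3 h array. Of 10 macrophage markers, 9 were well above background on all 4 arrays, among them Adgre1, Csf1r, Itgam and Cd68, and Mertk was on none. No listed marker of NK cells, neutrophils, fibroblasts or epithelium was well above background on any of the 4. The T cell genes Cd3e, Cd4 and Lck were on all 4, with Cd3g seen on 1 array and Cd8a on none, and the summed level of the 5 T cell markers lay between 2.75 and 3.14. The dendritic cell gene Siglech was at 7.27 to 7.41 on all 4, with Flt3 and Xcr1 on none and Zbtb46 on 3. Of the 4 B cell markers none was on all 4 arrays and Pax5 was on 3, and of the 3 endothelial markers Pecam1 was on all 4, at -3.56 to -3.06. The part of these genes in the results was not tested.

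The response widened with time. After 1 h, 546 of 20076 features (2.72%) were at least 2-fold higher and 263 (1.31%) at least 2-fold lower. After 3 h, 1152 of 20078 (5.74%) were higher and 1167 (5.81%) lower. After 5 h, 1358 (6.76%) were higher and 1598 (7.96%) lower. The 3 counts share the array without LPS, so they are not independent. The larger differences were mostly upward: 82, 193 and 226 features were at least 8-fold higher at 1, 3 and 5 h, and 25, 56 and 83 at least 8-fold lower. These counts take the difference as read, also where the dimmer array was not well above background, so a bound can be smaller. At 1 h Csf2 differed by 3.63 log2 with a bound of 2.6-fold, and Arsi by -4.72 with a bound of 5.29-fold. Of the 1818 features that were higher at 1 or more times and lower at none, 274 had their highest value at 1 h, 527 at 3 h and 1017 at 5 h. Of the 1845 that were lower, 95 were lowest at 1 h, 474 at 3 h and 1276 at 5 h. Where a higher gene had other probes, their median had the same sign for 78 of 90 genes at 1 h, 298 of 321 at 3 h and 387 of 414 at 5 h. It was also past 2-fold for 52, 227 and 297 of these genes. For lower genes the sign was the same for 16 of 21, 320 of 341 and 474 of 504, and 7, 205 and 320 were past 2-fold.

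**Figure D1:**
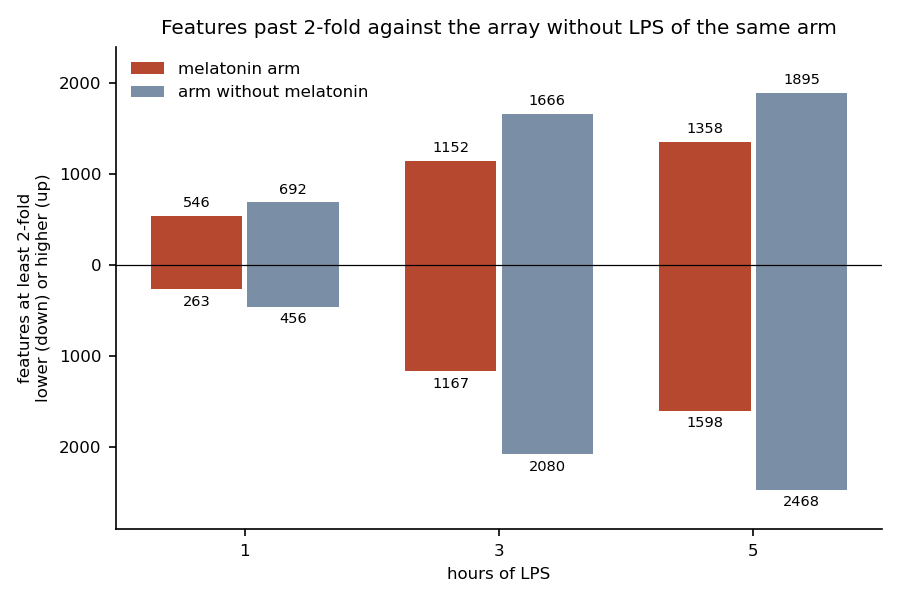
Features at least 2-fold higher (bars up) or lower (bars down) than the array without LPS of the same arm, by hours of LPS, in the melatonin arm (red) and the arm without melatonin (grey). Each bar compares 1 array with 1 array, and the melatonin bars are the shorter ones at every time and in both directions.

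Immediate early transcription factors, which cells switch on without new protein synthesis, led the response at 1 h. Of 22 listed factors all were measured, and 18 were at least 2-fold higher and none lower at 1 h, with a median of 3.24 log2 against -0.003 over all features. For 17 of the 22 the highest LPS level was the one at 1 h. Egr2, a zinc finger factor, had levels of -2.86, 4.02, 0.44 and -0.44 at 0, 1, 3 and 5 h, which put it 6.88 log2 higher at 1 h. Egr1 stood at 0.54, 6.10, 1.88 and 2.66 over the same times. Nr4a1, an orphan nuclear receptor, stood at -0.16, 5.16, -0.47 and 1.75. Each of these 3 was high on the 1 h array and much lower on the later ones. Egr3 was 6.21 log2 higher at 1 h and was not well above background at 5 h. Fos, a subunit of AP-1, stood at 0.65, 4.09, -1.61 and -0.39, so it was above its level without LPS at 1 h and below it at 3 and 5 h. Jun, its partner, was 3.27 log2 higher at 1 h and within 2-fold at 3 h (-0.31) and 5 h (0.54). Other members stayed high: Phlda1 differed by 5.64, 5.60 and 6.01 log2 at 1, 3 and 5 h, and Atf3, a stress-induced repressor, by 3.12, 5.21 and 5.90. Zfp36, which encodes a protein that destabilises cytokine mRNAs, differed by 3.88, 2.42 and 3.29. By 3 h the list had 13 members higher and 3 lower, and by 5 h 14 higher and 3 lower, with Klf2 and Nr4a2 among the lower ones at both times (-1.65 and -1.93 log2 for Klf2, -1.69 at both times for Nr4a2). Myc was not well above background without LPS and was at least 9.78-fold higher at 3 h and 10.8-fold at 5 h.

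MAP kinase phosphatases, which switch off the kinases that drive those factors, were high in the same hour. Of 10 listed, 7 were higher and none lower at 1 h, beside 2.72% of all features higher and 1.31% lower. Dusp5, specific for ERK, differed by 5.15, 4.08 and 4.37 log2 at 1, 3 and 5 h, and Dusp2 by 4.67, 3.73 and 4.24. Dusp1, which acts on p38 and JNK, stood at 0.41, 3.28, 1.90 and 0.52, back near its level without LPS at 5 h. Dusp6, Dusp7 and Dusp14 were lower at 3 h (-1.72, -1.48 and -1.36 log2). With normexp background correction 4 members, not 7, were higher at 1 h. Dnajb1, a heat shock co-chaperone, was also highest at 1 h, at 3.37, 6.08, 3.05 and 2.84, but was below its start already at 3 h. The other 10 measured members of the cytosolic chaperone list were within 2-fold at 1 h.

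NF-kB subunits and their inhibitors were higher at 1 h and more so later. Of 17 members, 10 were higher at 1 h, and 15 at each of 3 and 5 h, with none lower and medians of 1.16, 2.47 and 2.68 log2. Among all features 2.72%, 5.74% and 6.76% were higher at 1, 3 and 5 h. Nfkbia, which encodes the inhibitor IkBa, stood at 4.84, 7.46, 7.86 and 7.97. Nfkbiz, a nuclear cofactor needed for Il6, differed by 4.37, 4.23 and 4.05 log2, and Tnfaip3, the deubiquitinase A20, by 3.20, 3.93 and 3.28. These 3 were already near their plateau at 1 h. Nfkb1 and Nfkb2, the precursors of p50 and p52, came later, at 0.40 and 0.84 log2 at 1 h and 2.79 and 2.74 at 5 h. Rela, the main activating subunit, and Cyld were the 2 members within 2-fold at every time.

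Cytokine transcripts were highest late. Of the 20 measured of 23 listed, 8 were higher at 1 h, 17 at 3 h and 18 at 5 h, none was lower, and 16 had their highest level at 5 h. The medians were 0.88, 2.50 and 4.46 log2, against -0.003, 0.05 and 0.08 over all features. Counting only members well above background on both arrays, 4, 9 and 10 were higher, and with dim values raised to a common floor the medians were 0.29, 2.50 and 3.60. Tnf, the early macrophage cytokine, stood at 2.54, 6.79, 7.40 and 7.42 at 0, 1, 3 and 5 h, near its plateau from 1 h on. Il1b, which encodes the precursor of interleukin 1 beta, stood at -1.86, 1.62, 5.29 and 6.61, higher on each later array. Il6 stood at -6.55, -5.91, 1.58 and 3.89, and the arrays at 0 and 1 h were not well above background. Against that floor Il6 was at least 60.8-fold higher at 3 h and 301-fold at 5 h. Csf3, which drives neutrophil production, was at least 3.63-fold, 52.6-fold and 261-fold higher at 1, 3 and 5 h. Csf2 was at least 2.6-fold, 29.4-fold and 69.6-fold higher, and Lif at least 4.93-fold, 34.3-fold and 21.1-fold. Il1a passed background only at 3 and 5 h, at least 25.1-fold and 121-fold higher. Ifnb1, the interferon of the TRIF branch, stood at -4.19, -0.21 and -0.20 at 1, 3 and 5 h and was not well above background without LPS, so it was at least 17.7-fold higher at 3 h and again at 5 h. Il12b was not well above background on any of the 4 arrays. Il10, Il12a and Inhba did not pass the filter on dim probes.

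Chemokines followed the same order. Of the 14 measured of 17 listed, 5 were higher at 1 h and 12 at 3 and at 5 h, with medians of 0.53, 4.63 and 5.82 log2. Of those well above background on both arrays 7 were higher at 3 and at 5 h, and with the common floor the medians were 0.28, 3.01 and 4.05. Among all features 2.72%, 5.74% and 6.76% were higher at 1, 3 and 5 h. Cxcl2, which attracts neutrophils, stood at -5.94, 3.13, 4.71 and 5.41, the first not well above background, so it was at least 178-fold, 535-fold and 867-fold higher. These were the highest bounds at each time among features not well above background without LPS. Cxcl10, which attracts T cells and is induced by both NF-kB and interferon, stood at -1.67, 3.91, 7.42 and 7.38. Ccl4 differed by 4.01, 6.63 and 6.76 log2 and Ccl3 by 2.84, 5.55 and 5.90. Ccl5 was slower, at 0.63, 5.88 and 6.39, as was Ccl2, which attracts monocytes, at 1.89, 4.56 and 6.42. The probe of Cxcl11 was at 8.62 to 8.68 on all 4 arrays, without any difference. Cxcl1, Cxcl3 and Cxcl9 did not pass the filter on dim probes.

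**Figure D2:**
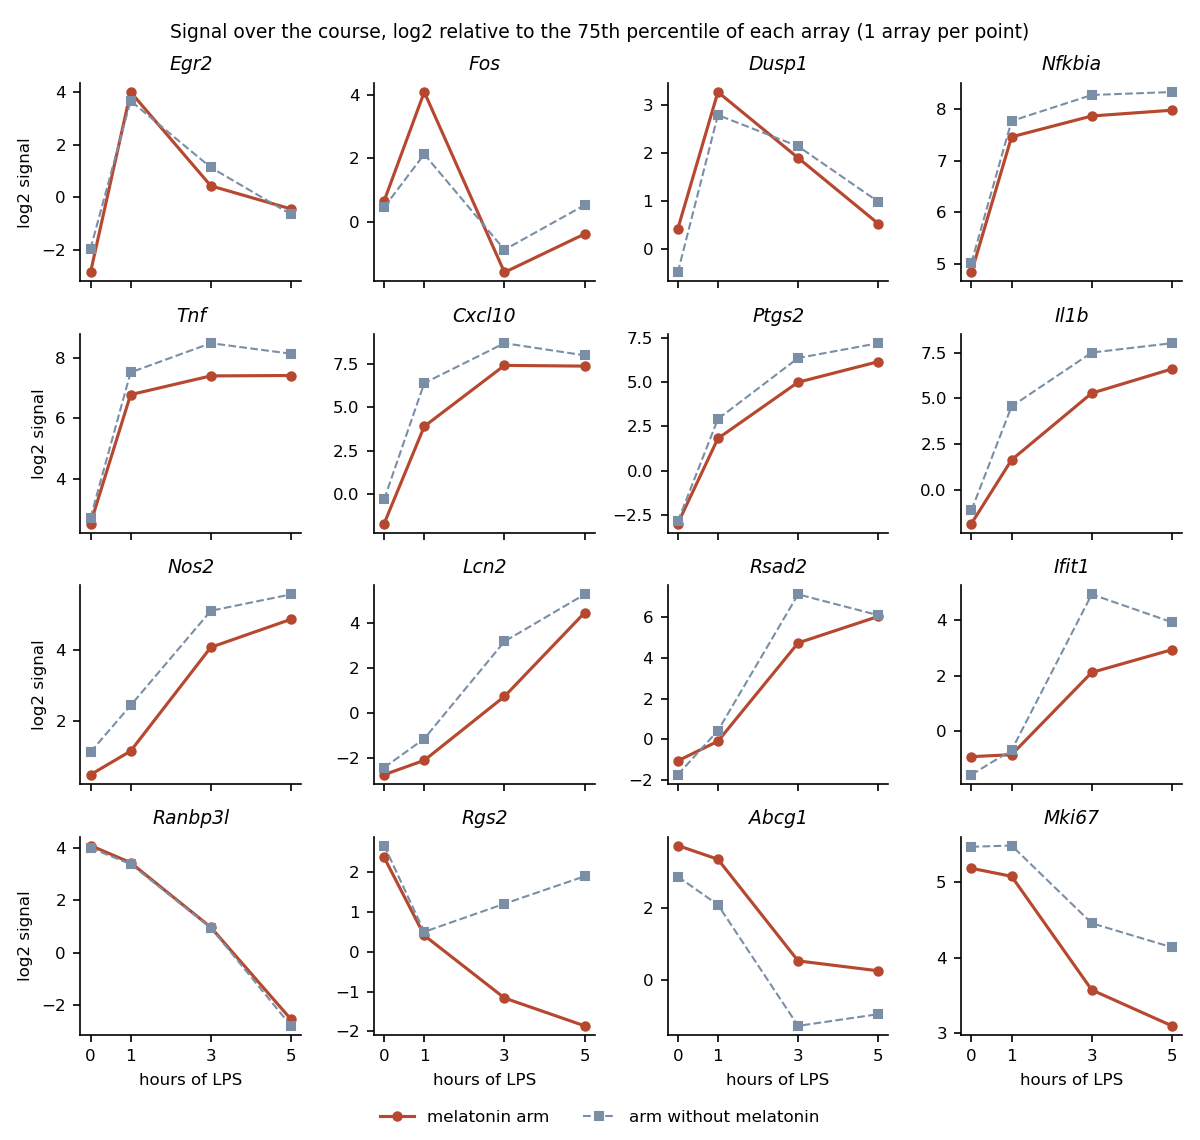
Level of 16 genes on each array against hours of LPS, as log2 signal relative to the 75th percentile of the array, with the melatonin arm in red circles and the arm without melatonin in grey squares, and 1 array per point. In the melatonin arm Egr2, Fos and Dusp1 were highest at 1 h, Nfkbia and Tnf were near their plateau by then, Il1b, Ptgs2, Lcn2 and Rsad2 were highest at 5 h, and the 4 genes of the bottom row were lowest there.

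Effector genes of the activated macrophage were higher late in part of their list. Of the 16 measured of 17 genes of nitric oxide, prostaglandin, itaconate and the acute phase, 4, 8 and 9 were higher at 1, 3 and 5 h and 0, 2 and 2 lower, with a median of 1.55 log2 at 5 h. The shares of all features were 2.72%, 5.74% and 6.76% higher and 1.31%, 5.81% and 7.96% lower. Ptgs2, the inducible cyclooxygenase of prostaglandin synthesis, stood at -2.99, 1.81, 4.98 and 6.14, and its 9.13 log2 at 5 h was the largest difference between arrays that were both well above background. Hpgd, the enzyme that inactivates prostaglandins, stood at -0.16, -0.72, -4.58 and -4.71 and was at least 18.5-fold lower at 3 h and 14.6-fold lower at 5 h. Ptgs1, the constitutive cyclooxygenase, was the other member lower, at -1.03 log2 at 3 h and at least 2.68-fold lower at 5 h, and Ptges, a prostaglandin E synthase, differed by -0.30 at both times. Nos2, which makes nitric oxide on induction, stood at 0.50, 1.16, 4.07 and 4.85, and Gch1, which makes its cofactor tetrahydrobiopterin, at 2.14, 2.88, 4.17 and 4.64. Acod1, which makes itaconate, differed by 3.22, 5.24 and 5.37 log2. Lcn2, an iron-withholding protein, differed by 0.64, 3.47 and 7.19, and Saa3, an acute-phase protein, by 1.38, 3.64 and 5.32. Both were within 3-fold of their start at 1 h and highest at 5 h. Outside that list, Plaur, the urokinase receptor, was 6.50 log2 higher at 5 h. Hcar2, a receptor for hydroxybutyrate and niacin, was 6.79 log2 higher, and Il4i1, a secreted amino acid oxidase, 6.43. Urah, an enzyme of urate breakdown, was at least 309-fold higher at 5 h.

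Feedback inhibitors of cytokine signalling were higher from 1 h on. Of 16 listed, 8 were higher at 1 h (5 with normexp background correction), 11 at 3 h and 10 at 5 h. The shares of all features higher at these times were 2.72%, 5.74% and 6.76%. Cish, a SOCS family member induced by STAT5, stood at -3.97, 0.05, 4.33 and 4.07. Socs3, which blocks gp130 signalling, differed by 3.29, 5.16 and 5.02 log2, and Zc3h12a, an RNase that cuts Il6 mRNA, by 3.36, 4.12 and 3.57. Irak3, an inhibitory kinase of the TLR pathway, was later, at 0.15, 1.50 and 2.79. Sigirr, an inhibitory receptor, was lower at 3 h (-1.16) and 5 h (-1.84). Of 22 measured genes of LPS sensing and TLR signalling, 1, 6 and 8 were higher at 1, 3 and 5 h, beside those same shares of all features. Cd14, the LPS coreceptor, stood at 5.45, 6.21, 7.24 and 7.80, and Tlr4 at 2.44, 2.47, 2.91 and 3.73. Tlr13, a receptor for bacterial ribosomal RNA, was the 1 member lower at both 3 h (-3.20 log2) and 5 h (-3.21), and Ly96, which encodes MD-2, differed by 0.04 and 0.03 at 3 and 5 h.

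Interferon response genes were higher at 3 and 5 h. Of 38 members none was higher and 1 lower at 1 h (1 higher with the mean of probes or against the mean of both arrays without LPS), 14 were higher at 3 h and 24 at 5 h, and for 37 of the 38 the 5 h array was the highest LPS array. The medians were -0.08, 0.46 and 1.51 log2. Among all features 2.72%, 5.74% and 6.76% were higher at 1, 3 and 5 h. Of the 1818 features higher at 1 or more times and lower at none, 1017 were highest at 5 h. Rsad2, the antiviral protein viperin, stood at -1.06, -0.10, 4.74 and 6.04. Ifit1, which binds viral RNA, stood at -0.94, -0.87, 2.12 and 2.94. Mx1, an antiviral GTPase, stood at -0.35, -1.74, 1.81 and 3.06 and was the member lower at 1 h. All 3 were highest at 5 h. Gbp2 was at least 8.15-fold higher at 3 h and 23.8-fold at 5 h. Of factors that transmit or amplify the interferon signal, Stat2 differed by -0.44, -0.62 and 0.46 log2 at 1, 3 and 5 h, and Irf7 by -0.07, -0.10 and 0.33.

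In the arm without melatonin the same list had 4, 34 and 34 members higher at 1, 3 and 5 h, beside 0, 14 and 24 with melatonin. The shares of all features past 2-fold upward there were 3.45%, 8.30% and 9.44%, so the arm without melatonin had more features past the limit generally. At 3 h the list median was 0.46 log2 with melatonin and 2.39 without, and at 5 h it was 1.51 and 2.80. Ifit2 differed by 1.68 and 3.69 log2 at 3 and 5 h with melatonin and by 5.27 and 4.68 without, and Usp18, which removes ISG15 from proteins, by 0.07 and 1.72 with melatonin and by 2.32 and 2.84 without. A cytokine list with medians of 2.50 and 4.46 log2 at 3 and 5 h with melatonin had 4.96 and 5.70 without. Ifnb1 itself stood at -0.21 and -0.20 at 3 and 5 h with melatonin and at 3.15 and 2.44 without. These are single arrays, and the melatonin by LPS term of limma, which sets the mean difference of the arms with LPS against that without, was called for none of 20073 features (0%) at an adjusted p under 0.05. At an unadjusted p under 0.05 there were 754 features, where 1004 would be expected by chance. The smallest limma adjusted p over all features was 0.459, and the model had 2 residual degrees of freedom. Its residual scatter is the change of the difference between the arms over 1, 3 and 5 h, not a replicate spread. A difference confined to some of these times widens its own SE, so the term cannot decide late differences here or below. The term of Ifit2 was -1.51 (SE 1.35, limma adjusted p = 0.909). Edn1, which encodes the vasoconstrictor endothelin 1, had the lowest unadjusted p, with a term of -4.77 (SE 0.34, limma adjusted p = 0.459), and Il6 a term of -4.06 (SE 0.42, limma adjusted p = 0.459). Both genes were not well above background at 0 and 1 h with melatonin and at 0 h without. Their terms therefore rest partly on values near background.

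**Figure D3:**
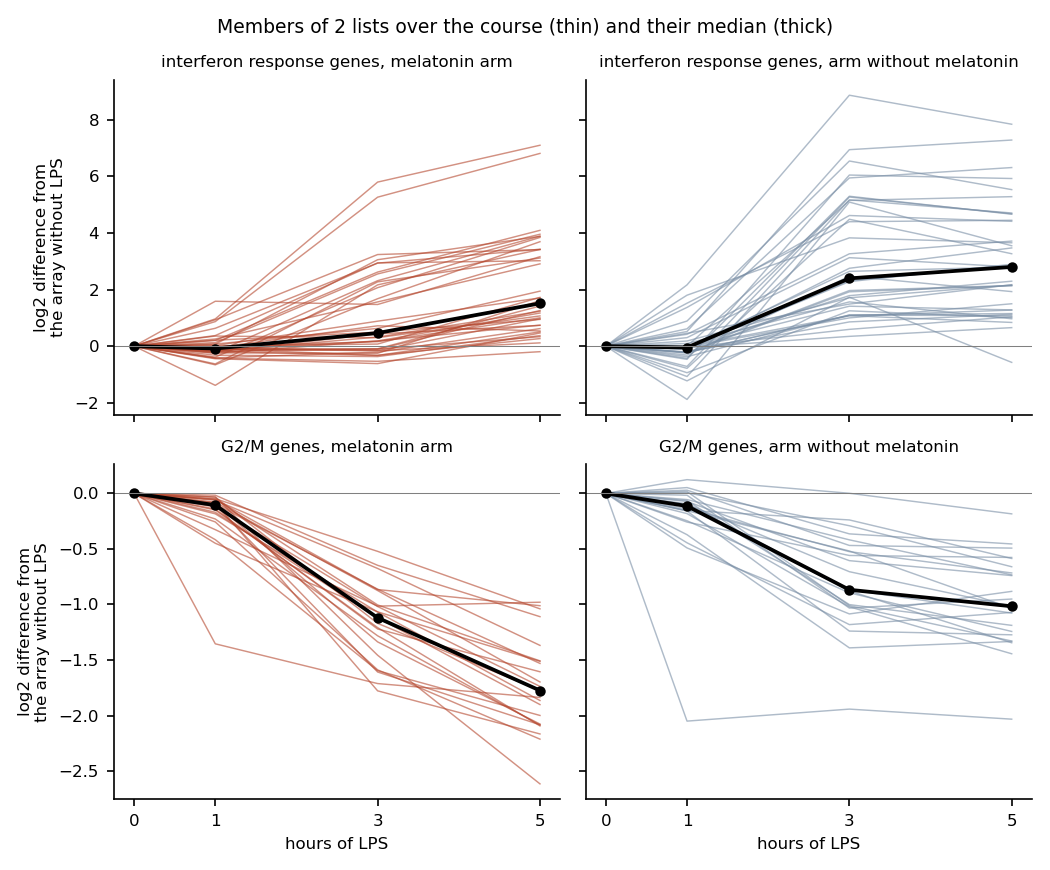
Log2 difference from the array without LPS of the same arm, by hours of LPS, for the 38 interferon response genes (top) and the 23 G2/M genes (bottom), with the melatonin arm on the left and the arm without melatonin on the right. Thin lines are genes and the thick line is their median, which at 5 h was 1.51 with melatonin and 2.80 without for the interferon genes, and -1.77 and -1.02 for the G2/M genes.

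The genes that were lower came mainly after 1 h. Ranbp3l, a Ran-binding protein, stood at 4.11, 3.45, 0.97 and -2.56 at 0, 1, 3 and 5 h, and its -6.67 log2 at 5 h was the lowest difference measured on both arrays. In the arm without melatonin it stood at 4.01, 3.40, 0.95 and -2.81, and the widest gap between the arms was that at 5 h. Abcg1, a cholesterol efflux transporter and LXR target, stood at 3.74, 3.36, 0.53 and 0.26. Klf10, a TGF-beta-induced zinc finger factor, stood at 1.10, 1.33, -2.18 and -2.57. Both were near their start at 1 h and far below it at 3 and 5 h. Angptl4, an inhibitor of lipoprotein lipase, differed by -1.22, -3.78 and -3.05 log2, and Chst1, a sulfotransferase, differed by -0.64, -3.51 and -3.71. Trp53inp1 and Sesn1, both p53 targets, differed by -3.52 and -2.20 log2 at 5 h, while Cdkn1a and Mdm2 of the same list were higher at 1 h (1.13 and 1.35) and within 2-fold later. Pik3ip1, an inhibitor of PI3 kinase, was at least 13.2-fold lower at 3 h and 10.4-fold at 5 h. Rgs2, which shuts off G protein signalling, stood at 2.37, 0.41, -1.16 and -1.86 with melatonin and at 2.67, 0.50, 1.21 and 1.90 without. The arms matched at 0 and 1 h, and Rgs2 was lower with melatonin at 3 and 5 h. Its melatonin by LPS term was -1.77 (SE 1.33, limma adjusted p = 0.908).

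Genes of mitosis moved together. None of the 23 G2/M genes was higher at any time, and 1 was lower at 1 h, 17 at 3 h and 22 at 5 h, with medians of -0.11, -1.12 and -1.77 log2. The shares of all features lower at these times were 1.31%, 5.81% and 7.96%. For all 23 the highest of the LPS arrays was the one at 1 h. Mki67, the Ki-67 proliferation antigen, stood at 5.18, 5.07, 3.57 and 3.10, and Ccnb1, cyclin B1, at 3.34, 3.16, 2.28 and 1.48. Plk1, the polo-like mitotic kinase, stood at 3.94, 3.52, 2.34 and 1.94. Cenpf, a kinetochore protein, had the largest difference of the list at 5 h (-2.62 log2), and Bub1b the smallest (-0.98). Kifc1 was the member already lower at 1 h (-1.35). In the arm without melatonin 1, 9 and 12 of the 23 were lower, with a median of -1.02 log2 at 5 h, beside 7.96% of all features lower at 5 h with melatonin and 12.3% without. For Ccnb1 the 5 h difference was -1.86 with melatonin and -0.73 without, and for Mki67 -2.08 and -1.33. The melatonin by LPS term was -0.64 for Ccnb1 (SE 0.38, limma adjusted p = 0.908) and -0.49 for Mki67 (SE 0.26, limma adjusted p = 0.908). Genes of G1/S and replication were lower by less. Of 23, none was lower at 1 h, 2 at 3 h and 10 at 5 h, with a median of -0.87 log2 at 5 h, beside 16 and -1.50 without melatonin. The count at 3 h was 6 with quantile normalization and 10 against the mean of both arrays without LPS. E2f2 and E2f8 were the 2 lower at 3 h (-2.55 and -1.91), and Ccne1, cyclin E1, differed by -0.66 at 5 h with melatonin and -2.40 without.

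**Figure D4:**
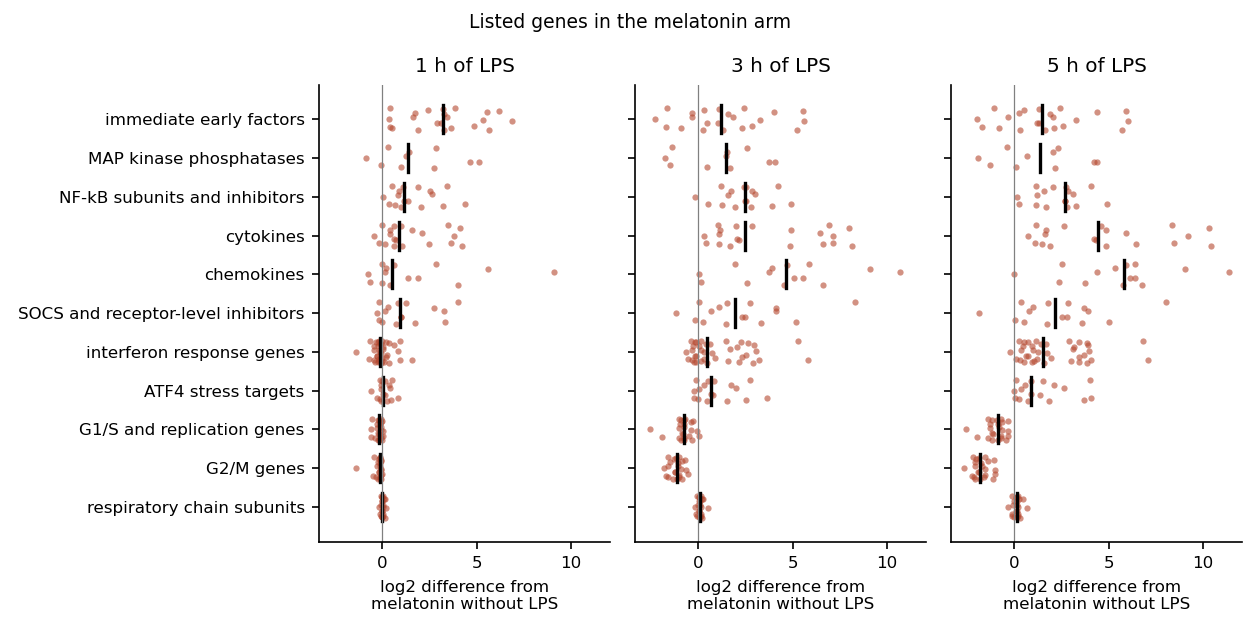
Log2 difference from the melatonin array without LPS for the measured members of 11 gene lists at 1, 3 and 5 h of LPS, with 1 point per gene and the list median as a black bar. By list median the immediate early factors lie farthest right at 1 h and the cytokines and chemokines at 5 h. The G2/M genes lie left of 0 at 3 and 5 h, while the respiratory chain subunits stay close to 0 throughout.

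Part of the genes of amino acid stress were higher late, beside 5.74% and 6.76% of all features higher at 3 and 5 h. Of 17 measured targets of ATF4, the factor of the integrated stress response, none was past 2-fold at 1 h, 6 were higher at 3 h and 8 at 5 h, and 16 were highest at 5 h. Trib3, a pseudokinase, stood at 0.61, 0.33, 3.36 and 4.29, and Chac1, which degrades glutathione, at 0.41, 0.39, 4.03 and 4.45. Cth, which makes cysteine, differed by 0.44, 2.56 and 4.05 log2, and Slc7a11, the cystine importer, by 0.52, 2.01 and 2.66. The list median at 5 h was 0.92 log2 with melatonin and 1.55 without, where 11 members were higher. Trib3 differed at 5 h by 3.68 with melatonin and 3.74 without, and Chac1 by 4.04 and 4.03. Asns, asparagine synthetase, differed at 5 h by 0.88 with melatonin and 1.55 without, and Atf5 by 0.73 and 1.70. Psat1 and Phgdh, of serine synthesis, differed by 0.01 and 0.11 log2 at 5 h. Among 15 NRF2 targets 1, 2 and 1 were higher and 0, 1 and 1 lower at 1, 3 and 5 h. Against the mean of both arrays without LPS 3 were higher at 5 h. Srxn1, which repairs oxidised peroxiredoxins, stood at 3.15, 4.91, 5.48 and 4.10 with melatonin and at 2.44, 3.25, 2.57 and 2.14 without. It was higher with melatonin on every array, and its melatonin by LPS term was 1.46 (SE 0.48, limma adjusted p = 0.908). Hmox1, haem oxygenase 1, stayed within 2-fold in both arms.

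Few metabolic housekeeping genes were past 2-fold. Of all features 2.72%, 5.74% and 6.76% were higher and 1.31%, 5.81% and 7.96% lower at 1, 3 and 5 h. The small counts of these short lists are therefore a description only. None of 22 respiratory chain subunits was past 2-fold at any time, with differences from -0.29 to 0.68 log2 at 5 h. Of 21 glycolysis and hypoxia genes 0, 1 and 2 were higher, the glucose transporter Slc2a1 at 3 h (1.23) and 5 h (1.44) and hexokinase 2, Hk2, at 5 h (1.50). Of 22 cholesterol synthesis genes 1 was higher at 1 h, Insig1, which retains the SREBP complex in the endoplasmic reticulum (1.57), and 3 were higher and 1 lower at 5 h. Of 17 chaperones of the unfolded protein response 1, 1 and 2 were higher, with Herpud1 at 1.20, 2.16 and 2.33 log2. The macrophage list was split: of 19 measured members 7 were higher and 4 lower at 5 h. Csf1r, the receptor of the survival factor CSF1, stood at 8.07, 7.93, 7.28 and 6.90. Msr1 and Cd36, scavenger receptors, were 1.98 and 2.20 higher at 5 h. Among 15 genes of costimulation and antigen presentation Cd40 differed by 1.61, 4.72 and 5.84 log2 and Cd274, which encodes PD-L1, by 0.70, 3.48 and 4.22, while Cd80 differed by -0.24, -0.42 and -0.29.

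Of 12 listed genes tied to melatonin itself 6 were measured, and none was past 2-fold at 1 or 3 h and 1 was lower at 5 h. The receptor genes Mtnr1a and Mtnr1b, and Asmt, the last enzyme of its synthesis, did not pass the filter on dim probes. Aanat, the rate-setting enzyme of synthesis, stood at -1.41, -1.33, -1.40 and -1.20, and Nqo2, a quinone reductase that binds melatonin, at 2.48, 2.48, 2.43 and 2.16. The member lower at 5 h was Tph2, a tryptophan hydroxylase of serotonin synthesis, at -3.61, -3.79, -4.04 and -5.36, the last not well above background, so at least 1.33-fold lower. Of 16 measured clock genes, 1 was higher at 1 h, and 2 were higher and 4 lower at 3 and at 5 h. Over all features 2.72%, 5.74% and 6.76% were higher and 1.31%, 5.81% and 7.96% lower at 1, 3 and 5 h. The repressor Nr1d2 differed by -1.72 and -1.91 log2 at 3 and 5 h and Dbp, a clock output factor, by -1.25 and -1.26, while Nfil3, which opposes Dbp, differed by 1.32 and 1.77. The core genes Clock and Arntl differed by -0.10 and 0.33 at 5 h. Of 15 genes of cAMP signalling, 4, 3 and 4 were higher and 0, 0 and 2 lower at 1, 3 and 5 h. The list medians were 0.05, -0.04 and -0.15 log2, and the lowest member at 5 h differed by -2.97. Among the higher ones, the phosphodiesterase Pde4b differed by 2.96, 3.39 and 2.68 log2. The prostaglandin E2 receptor Ptger4 differed by 1.75, 2.31 and 1.61, and Ptger2, another, by 0.48, 3.44 and 2.55.

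Most features past 2-fold at 3 and 5 h were past it in the same direction in the arm without melatonin, and fewer were at 1 h. At 1 h, 309 of the 546 features higher with melatonin (56.6%) were also higher without it, which is 44.7% of the 692 higher there. At 3 h the 843 shared features were 73.2% of those with melatonin and 50.6% of those without, and at 5 h the 1030 shared were 75.8% and 54.4%. For the lower features the shares were 40.3% and 23.2% at 1 h, 75.4% and 42.3% at 3 h, and 77.1% and 49.9% at 5 h. The counts without melatonin were larger at each time: 692 higher and 456 lower (2.27%) at 1 h, 1666 and 2080 (10.4%) at 3 h, and 1895 and 2468 (12.3%) at 5 h.

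On the mm9 coordinates of the files, the probe of Tnf lies at chromosome 17, 35336795 to 35336854, that of Il6 at chromosome 5, 30346367 to 30346426, that of Rsad2 at chromosome 12, 27127859 to 27127918, and that of Ranbp3l at chromosome 15, 8996153 to 8996212.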

How the data were processed

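RNA of 8 RAW264.7 samples was hybridised to 8 one-colour (Cy3) arrays on 1 slide. The intensity values are processed signals that the authors made with Agilent Feature Extraction 12.0.3.1, per the file headers: background subtracted, detrended, with surrogate values near background. The same headers define the 0 or 1 flags for spots well above background, saturated or outlying. The deposited log2 table of the series, whose arrays all hold the same sorted values as after quantile normalization by the authors, served as an alternative. The members and gene lists were chosen with earlier results of these data known.

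Of 62976 spots 3671 are controls and were dropped, as were spots marked as outliers. The log2 signals were centred on the 75th percentile of each array and the spots of a probe were averaged to give 56605 probes. Symbols came through RefSeq accessions for 32994 probes and from the files for 13297, and 10314 probes had none. A probe entered if 2 or more of the 8 arrays had it well above background (30429 probes). Each gene was read from its brightest probe on average, leaving 20079 features, 15573 with a symbol. No spot was saturated. The number of arrays limits the precision.

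A difference is 1 array minus 1 array, with no test. It was counted past 1 log2 where the brighter array was well above background. Where the dimmer array was not, "at least N-fold" sets the bright value against the higher of the dim value and the lowest signal well above background on that array. The melatonin by LPS term came from limma 3.58.1 in R 4.3.3 (LPS time, melatonin, melatonin by any LPS, empirical Bayes with intensity trend, Benjamini-Hochberg over all features, 2-sided), checked on simulated data. Its p-values reflect these 8 arrays alone. As no condition has a second array, the residual scatter is the change of the difference between the arms over the LPS times. It is not a replicate or technical spread, and the term cannot decide a difference confined to some times. Genes were named by rule: the 8 highest and lowest at each time, the 6 highest bounds, the 6 largest of each course, a fixed panel, and the 2 members farthest up and down in each of 26 lists. Other list members were added where they carry a step of the pathway, after their values were seen. Alternatives changed the normalization, the background correction, the filter, the floor, the probe rule and the array without LPS. Some genes are not reported here.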

Additional observations from a re-analysis of the deposited data

Results flagged for a closer look

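The olfactory receptor genes Olfr1243 and Olfr1419 were past 2-fold in opposite directions in the arms at 5 h of LPS. Olfr1243 differed by -1.72 log2 with melatonin and by 1.28 without. Olfr1419 differed by -2.27 with melatonin, where the 5 h array was not well above background and the bound is at least 4.81-fold lower, and by 1.07 without. The difference between the arms was not tested at a single time. In the melatonin arm both probes were brighter on the array without LPS than on any LPS array.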

How the results depend on the processing

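Counts at 1 h moved most. With normexp background correction 264 features were higher and 71 lower at 1 h, 750 and 610 at 3 h, and 925 lower at 5 h. Without a filter on dim probes 876 were higher and 516 lower at 1 h, and with the filter set at 1 of the 4 arrays 906 and 542. With probes well above background on all 4 arrays 284 were higher and 76 lower at 1 h and 767 higher at 3 h. Counting only features well above background on both arrays, which was chosen after seeing the data, gave 312 and 121 at 1 h. A common floor gave 161 lower at 1 h. The other counts stayed within 1.5 times of those reported, among them all 6 with quantile normalization, the deposited log2 table, the mean of probes and the mean of both arrays without LPS. With that mean, 4 of the 390 named differences changed sign: Arsi (0.3741), Maob (0.3462) and Vsig10l (0.0335) at 3 h and Cbln3 (0.2185) at 1 h. The cause was not tested. The melatonin by LPS term was called for 0 features with the other normalizations, background correction, filters, floor and probe rule and without the intensity trend, and for 0 to 40 with 1 array left out: 40 without the 1 h array with melatonin and 17 without the 1 h array without melatonin, each with 1 residual degree of freedom. No paired analysis was possible because each condition has 1 array.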

Other observations

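Some features stood out on a single array of the melatonin arm. At least 2-fold above all other arrays of the arm were 133 features on the array without LPS, 111 at 1 h, 86 at 3 h and 246 at 5 h, and for 42, 37, 33 and 60 of them the other arrays were not well above background. Arsi, an arylsulfatase, and Maob, monoamine oxidase B, were counted lower at all 3 LPS times with melatonin, by at least 5.29-fold and 4.72-fold at 1 h, and were not well above background on any array without melatonin. Against the mean of both arrays without LPS their 3 h differences turned to 0.3741 and 0.3462 log2. Efna4, an ephrin, differed by -2.24 and -2.39 log2 at 1 and 3 h with melatonin and was at least 4.73-fold lower at 5 h, and it differed by -0.12, -0.37 and -0.02 at 1, 3 and 5 h without melatonin. Smad3, a transducer of TGF-beta signals, differed by -0.20 and -0.86 log2 at 1 and 3 h with melatonin and was at least 9.55-fold lower at 5 h, while without melatonin it was at least 7.77-fold lower already at 3 h. Marcks, a protein kinase C substrate of the plasma membrane, was at least 19.6-fold higher at 3 h and 40.1-fold at 5 h with melatonin, beside at least 62.6-fold and 83.5-fold without.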
